A study of Homo sapiens with 9 samples.

Results

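Ligands and receptors of the TNF superfamilies were examined in MDA-MB-231 cells before and after treatment with the BET bromodomain inhibitor JQ1. Members were genes whose symbols in the platform's gene table match TNFSF or TNFRSF with their number and letter, or are FAS, FASLG, LTA, LTB, CD40, CD70 or NGFR. RefSeq lists 39 human genes whose symbols meet this rule, 15 ligands and 24 receptors. Of these, 2 had a named row on the array, the ligand gene CD70 and the receptor gene NGFR, out of 14884 named genes in all. The other 37 genes, among them FAS and the receptors for TRAIL and TNF, were not analysed here, so the values below describe NGFR and CD70 and not the superfamilies as groups. Each of the 2 genes had 1 row. The rule selects genes by symbol, but it was set with earlier results of these data known.

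Ligands of the TNF superfamily are mostly trimers held on the cell surface or shed from it, and they cluster receptors whose cytoplasmic tails carry either a death domain or short motifs that bind TRAF proteins. Death domain receptors can recruit caspases through the adaptors FADD and TRADD, and the same receptors, like those that bind TRAFs, can switch on NF-kB and JNK. NGFR, also called p75NTR, is a death domain receptor that binds neurotrophins, a family of growth factors that includes BDNF. CD70 is a ligand best known on activated lymphocytes and on some tumours, and its receptor is CD27.

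MDA-MB-231 is a mesenchymal-type, triple-negative breast cancer line grown here in DMEM with serum. The study had 3 controls with no agent at time 0, 3 samples exposed to 500 nM JQ1 for 12 h and 3 exposed to 500 nM JQ1 for 24 h, and 1 Affymetrix Human Gene 2.0 ST array was run per sample. JQ1 displaces BET proteins from acetylated chromatin. The labels name no vehicle and no controls matched to 12 h or 24 h, so solvent, time in culture and JQ1 cannot be told apart. Whether the replicates were separate cultures is not stated, so the spread behind each p-value may be technical.

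The deposited values are on a log2 scale, with array medians between 4.92 and 4.96 over all rows. The table used here holds no detection calls, and whether a low value stands above background cannot be told. Control 3 stood apart from the other controls. Its values differed from theirs with an SD of 0.39 log2, against 0.21 between controls 1 and 2. From the treated arrays control 3 differed with an SD of 0.31 to 0.40, and controls 1 and 2 with 0.38 to 0.41. Whether control 3 or the other 2 controls are the unusual ones cannot be told from 3 arrays. Each result was therefore also computed without control 3. A list of 10 measured stress response genes averaged 9.68 and 9.71 in controls 1 and 2, 7.72 in control 3, 8.12 to 8.25 at 12 h and 7.99 to 8.21 at 24 h. Control 3 minus the mean of controls 1 and 2 was −0.07 log2 for NGFR and −0.0047 for CD70.

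NGFR did not pass the test in any comparison. The receptor's log2 value was 5.96, 5.96 and 5.89 in the 3 controls. At 12 h of JQ1 it was 6.20, 5.99 and 5.61, and at 24 h it was 5.94, 5.96 and 6.04. The 12 h arrays held both the highest and the lowest NGFR reading of the series, and the control and 24 h arrays lay between them. Group means were 5.94 ± 0.04 for control, 5.94 ± 0.30 at 12 h and 5.98 ± 0.05 at 24 h (SD, n = 3 each), and no neighbours in this order differed beyond their spread.

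In limma's moderated test, adjusted over all 14884 genes with the Benjamini-Hochberg method, the NGFR difference from control at 12 h was 0.0002 log2 (SE 0.13, adjusted p = 1). Its 95% interval allows a change between 0.82-fold and 1.23-fold. At 24 h the difference was 0.04 (SE 0.13, limma adjusted p = 0.895), with an interval from 0.84-fold to 1.27-fold. Between the 2 times NGFR differed by 0.04 (SE 0.13, limma adjusted p = 0.979). Its difference at 12 h depended on which array was counted, since it was −0.13 without JQ1 12 h replicate 1 and 0.16 without JQ1 12 h replicate 3. Without control 3 the differences were −0.02 at 12 h and 0.02 at 24 h.

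CD70 did not pass the test either. Its log2 value was 5.20, 5.14 and 5.17 in the controls. It was 5.37, 5.17 and 5.23 at 12 h, and 5.16, 5.17 and 5.17 at 24 h. JQ1 12 h replicate 1 was the highest array for this ligand, as it was for NGFR. The control range overlapped those of both treated groups, and the 24 h values lay just under the 12 h values with no overlap. Such separation was found for 12.9% of all genes in that comparison. Group means in rising order were 5.17 ± 0.0045 at 24 h, 5.17 ± 0.03 in control and 5.26 ± 0.10 at 12 h (SD, n = 3 each).

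At 12 h CD70 was 0.09 log2 above control (SE 0.07, limma adjusted p = 0.589), and its 95% interval allows 0.95-fold to 1.19-fold. At 24 h the difference was −0.01 (SE 0.07, limma adjusted p = 0.977), with an interval from 0.89-fold to 1.12-fold. The 24 h arrays were 0.09 lower than the 12 h arrays (difference −0.09, SE 0.07, limma adjusted p = 0.896). Without JQ1 12 h replicate 1 the 12 h difference from control was 0.03. Without control 3 the CD70 differences were 0.08 at 12 h and −0.01 at 24 h.

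Thus 0 of the 2 genes were called at an adjusted p under 0.05 at 12 h, where 7.93% of all genes were called. At 24 h the count was 0 of 2 beside 11.5% of all genes, and between the 2 times 0 of 2 beside 0.00672%. At an unadjusted p under 0.05 limma also gave 0 of 2 in each comparison. The intervals of both genes, with 3 arrays a group, lie well inside a 2-fold change in either direction at both times. They bound the array values and not the transcripts. CD70 read 5.14 to 5.37, close to the array medians of 4.92 to 4.96. A row near background can give a narrow interval whatever the transcript does, and whether CD70 stood above background cannot be told. The spread of CD70 over the 9 arrays was narrow. Its highest and lowest values differed by 0.23 log2, a range at the 9th percentile of all genes, while NGFR spanned 0.59, at the 61.5th percentile. CD70 had exactly the same deposited value in 3 arrays and NGFR in 2, and repeated values of this kind occurred in 44.4% of all genes.

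**Figure D1:**
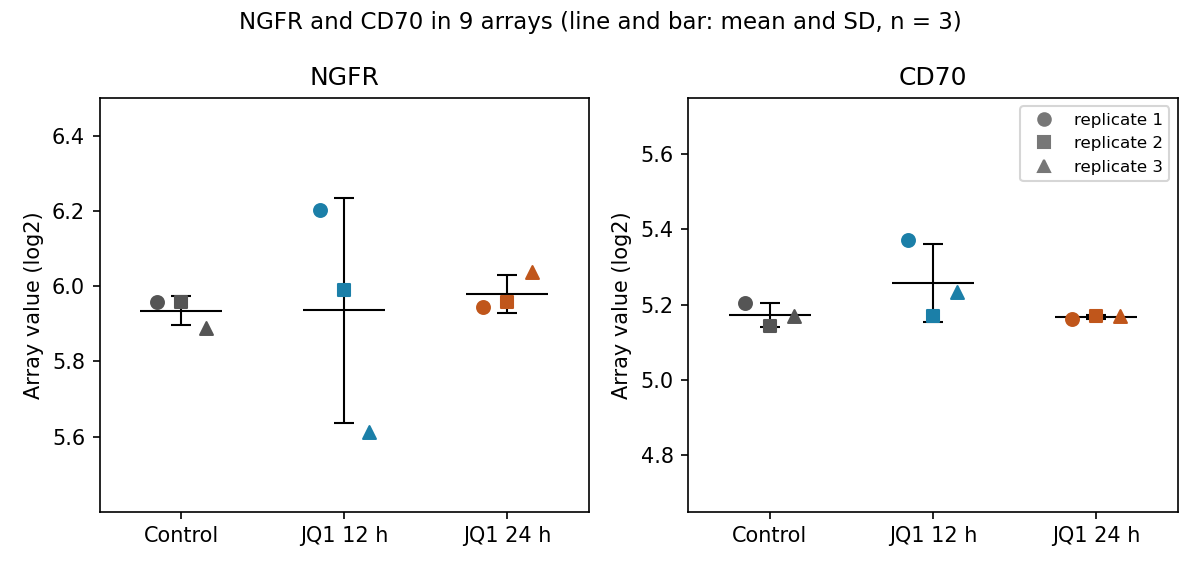
Deposited log2 array values of NGFR (left) and CD70 (right) in the 3 controls, 3 JQ1 12 h arrays and 3 JQ1 24 h arrays; symbols mark the replicate number, horizontal lines the group mean and bars the SD. NGFR at 12 h runs from 5.61 to 6.20 around the control mean of 5.94, and CD70 stays between 5.14 and 5.37.

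Superfamily genes whose symbols fall outside the rule were read from a separate list of 8, of which 6 had a named row. They are the ligands TNF and EDA and the receptors CD27, EDAR, EDA2R and RELT. With limma 0 of 6 were called at 12 h, at 24 h or between the times, beside 7.93%, 11.5% and 0.00672% of all genes. At such shares 0 of 6 does not set these genes apart. At an unadjusted p under 0.05 the counts were 0, 1 and 1. Their median difference was 0.09 log2 at 12 h and 0.03 at 24 h, beside 0.01 and 0.01 over all genes.

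CD27, the receptor of CD70, read 5.15, 5.26 and 5.21 in the controls, 5.28, 5.19 and 5.36 at 12 h, and 5.12, 5.20 and 5.23 at 24 h. Its groups overlapped in every comparison, with differences from control of 0.08 (SE 0.07, limma adjusted p = 0.661) at 12 h and −0.02 (SE 0.07, limma adjusted p = 0.923) at 24 h. Neither the ligand nor the receptor of the CD70 and CD27 pair was called.

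TNF, the founding cytokine of the family, read 5.10, 5.14 and 5.02 in the controls, 5.18, 5.06 and 5.06 at 12 h and 5.05, 5.10 and 5.14 at 24 h. All 9 values lay within 0.16 log2. The differences from control were 0.02 (SE 0.07, limma adjusted p = 0.943) and 0.01 (SE 0.07, limma adjusted p = 0.954). Both turned negative without control 3 (−0.02 and −0.02). TNF had 8 rows, of which 7 held the same values, and the other row gave 0.04 at 12 h and 0.13 at 24 h.

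EDA encodes ectodysplasin, a ligand of skin appendage development, and EDAR and EDA2R bind its isoforms; EDAR, like NGFR, carries a death domain. EDA read 5.36, 5.37 and 5.19 in the controls, 5.36, 5.45 and 5.45 at 12 h, and 5.53, 5.45 and 5.47 at 24 h. All its 24 h values lay above all its controls, which held for 26.1% of all genes in either direction. The difference of 0.18 (SE 0.08) did not pass (limma adjusted p = 0.179), and without control 3 it was 0.12.

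EDAR read 5.15, 4.90 and 5.15 in the controls, 5.23, 5.23 and 5.15 at 12 h, and 5.18, 5.23 and 4.80 at 24 h. Its groups overlapped, with differences from control of 0.14 (SE 0.12, limma adjusted p = 0.618) and 0.0021 (SE 0.12, limma adjusted p = 0.994). EDA2R read 4.97, 5.09 and 4.97 in the controls, 4.98, 4.76 and 4.74 at 12 h and 4.95, 5.15 and 5.06 at 24 h. In JQ1 12 h replicates 2 and 3 it lay below every control, and in replicate 1 it did not. Its difference at 12 h was −0.19 (SE 0.09, limma adjusted p = 0.274) and at 24 h 0.04.

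RELT, a receptor of lymphoid tissue that lacks a death domain, read 6.58, 6.90 and 7.01 in the controls, 7.07, 7.09 and 6.91 at 12 h, and 6.98, 6.97 and 6.98 at 24 h. Control 1 was the lowest array, and controls 2 and 3 lay near or among the treated values. The differences from control were 0.20 (SE 0.11, limma adjusted p = 0.375) and 0.15 (SE 0.11, limma adjusted p = 0.487). Without control 3 the 12 h difference was 0.29 (limma adjusted p = 0.0937) and the 24 h difference 0.24 (limma adjusted p = 0.157). Without control 1 they were 0.07 and 0.022. RELT had a second row, which gave 0.12 at 12 h and −0.0186 at 24 h.

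**Figure D2:**
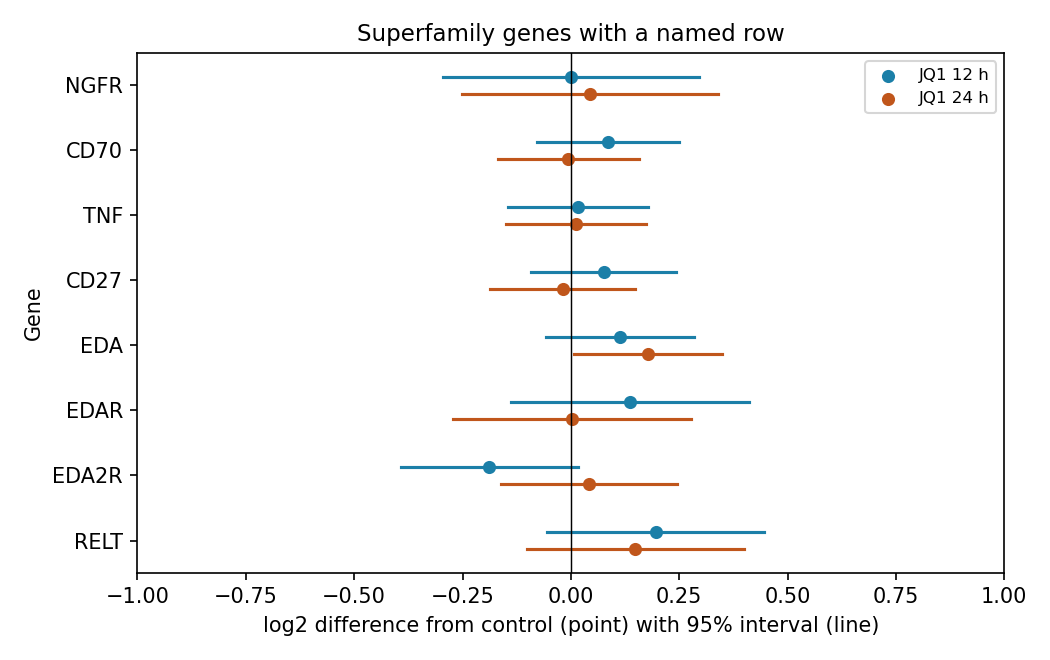
Log2 difference from control of NGFR, CD70 and the 6 other superfamily genes with a named row, at JQ1 12 h and 24 h; points are limma estimates from all 9 arrays and lines their 95% intervals. All estimates lie between −0.19 and 0.20, and the EDA interval at 24 h (0.0078 to 0.35) is the only one that does not include 0; EDA was not called after adjustment.

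Neurotrophins and the proteins that work with NGFR were read from a list of 15 added after first results were known, of which 8 had a named row. With limma 0 of 8 were called at 12 h, at 24 h or between the times (1 of 8 in each at an unadjusted p under 0.05). Over all genes 7.93%, 11.5% and 0.00672% were called. BDNF, a neurotrophin that NGFR binds, read 6.01, 6.03 and 6.11 in the controls, 6.01, 5.91 and 5.90 at 12 h and 6.10, 6.01 and 6.15 at 24 h. Its highest value in the 12 h group was the same deposited value as the lowest control, and its differences from control were −0.11 (SE 0.07, limma adjusted p = 0.453) and 0.03 (SE 0.07, limma adjusted p = 0.847). NTF4, neurotrophin 4, read 4.70, 4.44 and 4.67 in the controls, 5.17, 4.71 and 5.08 at 12 h, and 4.76, 4.71 and 4.71 at 24 h. Every treated array lay above every control for NTF4 (groups did not overlap for 22.2% of all genes at 12 h and 26.1% at 24 h), yet neither difference passed (0.38, SE 0.12, limma adjusted p = 0.0986 at 12 h and 0.12, SE 0.12, limma adjusted p = 0.623 at 24 h). The margin was narrow, since the highest control read 4.7045 and the lowest treated value, held by 3 arrays, was 4.7145. All control and 24 h readings of NTF4 lay below the array medians of 4.92 to 4.96. Whether they stood above background cannot be told. BEX3, which binds the cytoplasmic tail of NGFR, was 6.75, 6.66 and 6.67 in the controls, 6.75, 6.46 and 6.52 at 12 h and 7.08, 6.78 and 7.15 at 24 h. All its 24 h values lay above all others, and between the 2 times 12.9% of all genes were separated in either direction. The BEX3 difference at 24 h was 0.31 from control (SE 0.11, limma adjusted p = 0.119) and 0.43 from 12 h (SE 0.11, limma adjusted p = 0.458). Without control 3, 1 of the 8 was called at 24 h, beside 20.9% of all genes. It was PRDM4, a zinc finger protein that binds NGFR, called lower (−0.31, limma adjusted p = 0.0284). With all arrays PRDM4 was not called at 24 h (−0.19, limma adjusted p = 0.332).

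Genes for proteins through which receptors of the superfamilies signal were read from further lists. With only 2 member genes, no difference between members and partners in the share called can be read. Of 46 listed adaptors, death effectors, kinases and NF-kB genes, 30 had a named row. With all arrays 0 rose and 4 fell at 12 h (13.3% called), 2 rose and 5 fell at 24 h (23.3%), and 0 were called between the times. Over all genes 3.54% rose and 4.39% fell at 12 h, and 5.17% rose and 6.34% fell at 24 h. The partners' median difference was −0.24 at 12 h and −0.23 at 24 h, beside 0.01 and 0.01 over all genes. Without control 3, where 20.1% and 20.9% of all genes were called, 2 rose and 12 fell at each time (46.7%). Over all genes the shares were then 9.57% up and 10.5% down at 12 h, and 9.61% up and 11.3% down at 24 h. The 14 partners called at 12 h without control 3 held all 4 called there with all arrays, and the 14 called at 24 h held 6 of the 7, BID being the exception.

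Among the death effectors, CFLAR, which encodes the caspase-8 inhibitor c-FLIP, read 6.61, 6.62 and 6.16 in the controls, 5.28, 5.57 and 5.78 at 12 h, and 5.72, 5.50 and 5.77 at 24 h. Every treated array lay below every control. Groups did not overlap, in either direction, for 22.2% of all genes at 12 h and 26.1% at 24 h. CFLAR fell 1.89-fold at 12 h (log2 −0.92, SE 0.16, limma adjusted p = 0.00991) and 1.74-fold at 24 h (−0.80, SE 0.16, limma adjusted p = 0.0136). The 24 h call was lost without control 1 or control 2 (limma adjusted p = 0.0533 and 0.0521). XIAP, an inhibitor of executioner caspases, read 6.01, 5.69 and 5.98 in the controls, 5.70, 5.68 and 5.74 at 12 h and 5.22, 5.34 and 5.07 at 24 h. It fell 1.61-fold at 24 h (−0.69, SE 0.10, limma adjusted p = 0.00401) and lay lowest in all 3 of those arrays. At 12 h its difference was −0.19 (limma adjusted p = 0.348), and the step from 12 h to 24 h did not pass (−0.50, limma adjusted p = 0.376). BID, the link from caspase-8 to mitochondria, fell at both times (−0.42 and −0.36, limma adjusted p = 0.0334 and 0.0445). The BID call at 24 h was lost without control 3 (limma adjusted p = 0.0618) and without every other array but JQ1 12 h replicate 3, and at 12 h without any array but control 3 or JQ1 24 h replicate 2 (up to 0.128 over both times).

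Among the adaptors, TRADD, which couples death domain receptors to RIPK1 and TRAF2, read 7.74, 7.65 and 7.52 in the controls, 8.23, 7.97 and 7.99 at 12 h and 8.47, 7.91 and 8.50 at 24 h. Every treated array lay above every control, a separation found in either direction for 22.2% of all genes at 12 h and 26.1% at 24 h. Its rise at 24 h was 1.58-fold (0.66, SE 0.16, limma adjusted p = 0.0267), a call lost when control 1 or 2, or JQ1 24 h replicate 1 or 3, was left out (up to 0.108), and at 12 h it did not pass (0.43, limma adjusted p = 0.142). BIRC2, the ubiquitin ligase cIAP1, fell at both times (−0.43 and −0.53, limma adjusted p = 0.0345 and 0.0115); its 12 h call was lost without any array but control 2 or control 3 (up to 0.108). TRAF1, an adaptor that NF-kB induces, read 6.90, 6.98 and 5.01 in the controls, 5.07 to 5.46 at 12 h and 4.91 to 5.70 at 24 h. Control 3 thus lay with the treated arrays, and TRAF1 was called without it but not with all arrays (−1.67 at 12 h and −1.60 at 24 h, limma adjusted p = 0.000429 and 0.00051, against −1.03 and −0.96 with it, 0.24 and 0.24). RBCK1, CYLD, TNIP1 and TANK, which add, remove or read ubiquitin chains or bind TRAFs, were likewise called lower at both times without control 3 and not with all arrays.

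Among the kinases and NF-kB genes, MAP3K14, the NF-kB inducing kinase NIK that CD40 and similar receptors stabilise, read 6.45, 6.47 and 6.68 in the controls, 6.83, 6.85 and 6.85 at 12 h, and 7.16, 7.06 and 7.22 at 24 h. Its 3 groups did not overlap. Separation from control held for 22.2% of all genes at 12 h and 26.1% at 24 h, and between the times for 12.9%. MAP3K14 rose 1.53-fold at 24 h (0.62, SE 0.08, limma adjusted p = 0.00243) and missed the threshold at 12 h (0.31, limma adjusted p = 0.0532, and 0.00617 without control 3). MAP3K7, the kinase TAK1 that acts upstream of NF-kB and JNK, read 9.82, 9.79 and 9.92 in the controls, 10.07, 10.01 and 10.19 at 12 h, and 9.97, 9.97 and 9.99 at 24 h. All its treated values lay above all controls, a separation with the shares over all genes given for MAP3K14. It was called higher at 12 h without control 3 (0.29, limma adjusted p = 0.0288), a fit that called 20.1% of all genes. MAP3K7 was not called at 12 h with all arrays (0.25, limma adjusted p = 0.0782), or at 24 h. NFKB1 read 8.94, 8.94 and 8.84 in the controls, 8.36, 8.25 and 8.42 at 12 h, and 8.30, 8.08 and 8.28 at 24 h. It fell 1.48-fold and 1.61-fold (−0.56 and −0.69, SE 0.09, limma adjusted p = 0.00561 and 0.00164), and kept both calls whichever array was left out. NFKB2 read 8.58, 8.45 and 7.21 in the controls, with 7.37 to 7.60 at 12 h and 7.38 to 7.59 at 24 h, and NFKB2, RELB and TAB2 were called lower at both times without control 3 and not with all arrays. Control 3 lay below both other controls in 8 of 13 adaptors, 8 of 12 kinases and NF-kB genes, all 10 stress response genes and 1 of 5 death effectors. The share over all genes was not computed, so these counts do not set the lists apart. The median difference of control 3 from the mean of controls 1 and 2 was −0.21 log2 for the adaptors, −0.17 for the kinases and NF-kB genes and 0.11 for the death effectors, where MLKL, the executor of necroptosis, was 0.97 higher. The part of this in the results was not tested.

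NF-kB regulates several of these partners, and the promoter letters below show the kappa B consensus as found in 3 that were called lower, NFKB1 and CFLAR with all arrays and TNIP1 without control 3, and in TRAF3, which was not called. The windows are from RefSeq (GRCh38.p14), which run from upstream of each start site to just after it, and capitals mark the match on either strand.
NFKB1: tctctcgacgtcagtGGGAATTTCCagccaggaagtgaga
CFLAR: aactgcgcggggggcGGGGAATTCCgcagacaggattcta
TNIP1: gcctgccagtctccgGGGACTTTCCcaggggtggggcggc
TRAF3: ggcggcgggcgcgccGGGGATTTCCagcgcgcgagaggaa
The NFKB1 stretch lies at chr4:102501295-102501334 on the plus strand, with the match starting 49 bases before the start site. That of CFLAR lies at chr2:201118604-201118643 on the plus strand, 97 bases before, and that of TNIP1 at chr5:151081052-151081091 on the minus strand, 42 bases before. The TRAF3 stretch lies at chr14:102777401-102777440 on the plus strand, with the match 33 bases before. Of the 26 measured partners with a window, 8 held the consensus (30.8%), against 7.09% of all 27305 genes. The lists were chosen by role and include NF-kB genes themselves, so the higher share can follow from that choice and is no test. The 8 were 6 partners called lower with all arrays or without control 3 (CYLD, TNIP1, CFLAR, TAB2, NFKB1 and NFKB2) and 2 called in neither fit (TRAF3 and REL). Of the 6, only CFLAR and NFKB1 were called with all arrays. The share of all genes called lower in either fit at either time was not computed. With all arrays it was 4.39% at 12 h and 6.34% at 24 h, and without control 3 it was 10.5% and 11.3%. Of the other partners with a window, 6 were called lower (TRAF1, BIRC2, RBCK1, TANK, BID and XIAP), 2 were called higher and 10 were not called. TRAF1, RBCK1 and TANK among them were called only without control 3. Such a match is a description of the letters and not a bound site, and no link between matches and calls was tested. No window for NGFR or CD70 was used here.

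**Figure D3:**
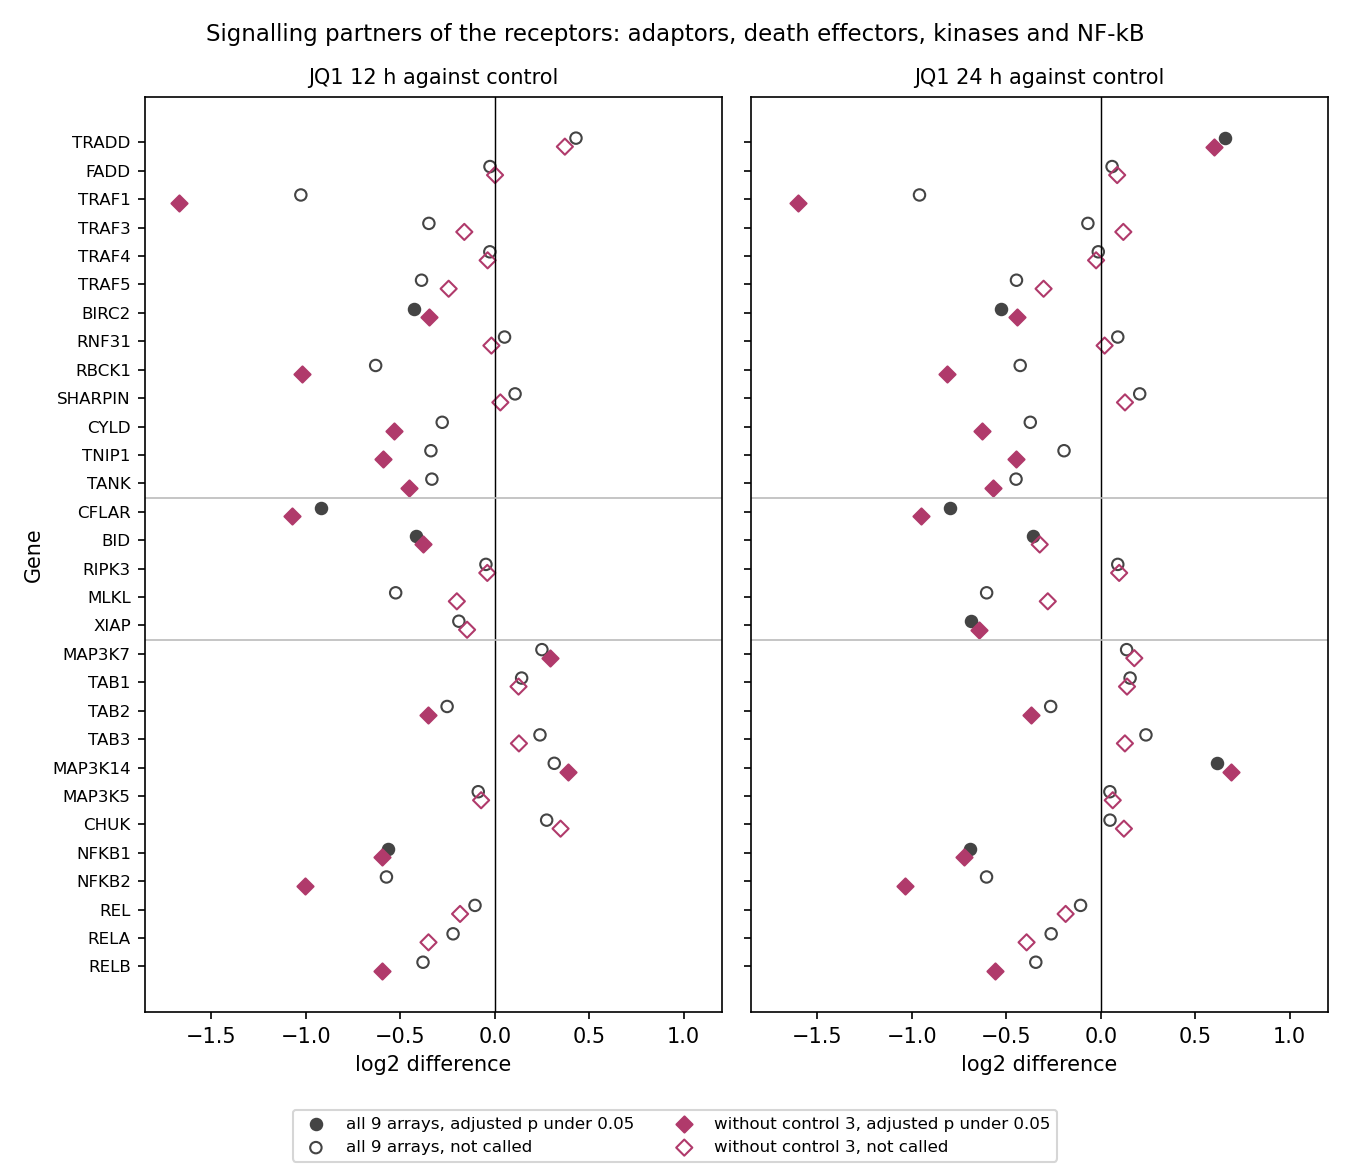
Log2 difference from control at JQ1 12 h (left) and 24 h (right) of 30 signalling partners, with grey lines between adaptors, death effectors, and kinases with NF-kB genes; circles use all 9 arrays and diamonds leave out control 3, and filled symbols were called at a limma adjusted p under 0.05. TRAF1 moves from −1.03 to −1.67 at 12 h when control 3 is left out, while NFKB1 moves from −0.56 to −0.60.

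Markers of the line and of other cells were read beside the superfamily genes, since CD70, CD27 and TNF are genes of immune cells. The 4 measured mesenchymal markers of 6 averaged 9.19 to 9.34 in the controls, 9.09 to 9.27 at 12 h and 9.04 to 9.26 at 24 h. This average is not a level shared by the list. Control means were 11.72 for AXL, 10.35 for VIM, 7.62 for CD44 and 7.34 for ZEB1. Of the 4 mesenchymal markers, ZEB1, a repressor of epithelial genes, was called lower at 24 h (−0.46, limma adjusted p = 0.0416), and 0 were called at 12 h. Without control 3, ZEB1 was called lower (−0.52 and −0.58, limma adjusted p = 0.00623 and 0.00362) and the filament gene VIM higher (0.36 and 0.38, limma adjusted p = 0.00896 and 0.00674) at both times. The 6 measured luminal and epithelial markers of 8 averaged 5.67 to 5.75, 5.58 to 5.68 and 5.59 to 5.69. Within that list GATA3 and EPCAM were called lower at 12 h (−0.38 and −0.28, limma adjusted p = 0.0297 and 0.0485), and at 24 h GATA3 was called lower (−0.41, limma adjusted p = 0.0171) and the keratin KRT8 higher (0.39, limma adjusted p = 0.0426). These 4 calls also held without control 3. The GATA3 call at 24 h was lost only without control 2 (limma adjusted p = 0.0608), while the other marker calls with all arrays were each lost in at least 5 of 9 fits that left out 1 array, controls 1 and 2 among them (up to 0.166). The 5 measured leukocyte markers of 10 averaged 6.09 to 6.13, 6.09 to 6.15 and 6.09 to 6.27, with ranges that overlapped. CD68, a macrophage and lysosome gene, read 11.42 to 11.88 and raised this average. The other measured leukocyte markers read 3.69 to 6.01, so the average is not a level shared by the list. With all arrays 0 of 5 were called in either comparison with control (0 also at an unadjusted p under 0.05). Without control 3, 1 of the 5, CD68, was called lower at 12 h (−0.33, limma adjusted p = 0.0333). Beside these marker calls, 7.93% of all genes were called at 12 h and 11.5% at 24 h with all arrays. Without control 3 the shares over all genes were 20.1% and 20.9%.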

How the data were processed

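The authors deposited log2 array values, 1 column per array and 53617 rows; the log2 unit was read from the values. The tool was Transcriptome Analysis Console, per the submitters' processing notes; its settings are not given in the sources used here. Through the platform's gene table, 16098 rows carried exactly 1 symbol and 0 more than 1, and the other 37519 have no name here; the row with the highest mean stood for each gene. All 16098 matched RefSeq by gene ID. Differences were fitted with limma 3.58.1 in R 4.3.3 (1 mean per group, 9 arrays, 3.14 prior degrees of freedom) and adjusted with Benjamini-Hochberg over 14884 genes; 95% intervals come from that fit. The script was tested on simulated data. Array number limits the precision.

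Genes named were both members, superfamily genes outside the rule, and partners and markers called with all arrays or without control 3, with MLKL and uncalled promoter matches added after their values were seen; NGFR partners are a few chosen by role or separation after their values were seen. Members and lists were chosen with earlier results of these data known. Alternatives covered arrays left out, blocking, filtering, row choice, normalization, variance model, samples fitted, tests adjusted together and array weights.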

Additional observations from a re-analysis of the deposited data

How the results depend on the processing

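NGFR and CD70 stayed uncalled, with a count of 0 of 2, in every comparison under all 17 alternatives run. The signs of near-zero differences changed. With array weights the NGFR difference at 12 h was −0.0314, those of TNF were −0.0257 at 12 h and −0.0121 at 24 h, and that of EDAR at 24 h was −0.0021. After quantile normalization NGFR at 12 h was −0.0062 and EDAR at 24 h −0.0111. When single arrays were left out, NGFR ran from −0.13 to 0.16 at 12 h and from −0.12 to 0.18 between the times. CD70 ran from −0.0203 to 0.0103 at 24 h. TNF ran from −0.0247 to 0.042 at 12 h and from −0.0207 to 0.0373 at 24 h. At 24 h CD27 ran from −0.0481 to 0.0133, EDAR from −0.0823 to 0.14 and EDA2R from −0.0063 to 0.0946. Over the other alternatives and 56 gene differences, 21 of 448 values lost and 22 gained a call. The genes counted included every partner called without control 3. Gains under a low weight for control 3 follow in part from that choice. Of the gains 20 came with array weights, which gave control 3 a weight of 0.21 beside 0.69 to 1.97 for the other arrays. The cause was not tested.

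No clear pairing of the arrays by replicate number was seen. Of 9 same-numbered pairs, 2 correlated above 0.1 in their deviations from group means (−0.316 to 0.224), and 2 of 9 arrays correlated best with their own number. Deviations within a group cancel out, so these correlations depend on each other and cannot exclude pairing. With the replicate block 967 genes were called at 12 h and 1478 at 24 h, against 1181 and 1714, and 0 of the 2 members. The block also lost the 12 h calls of BIRC2 and BID (limma adjusted p = 0.0536 and 0.0661) and the 24 h call of BID (0.0827). Calls over all genes at 12 h and 24 h were 2986 and 3111 without control 3, 543 and 1011 without control 1, 564 and 1034 without control 2, 3498 and 3764 with array weights, 577 and 994 with only the arrays compared, and 696 and 1121 with all rows tested together. No detection calls were used, so the depth behind a low value is unknown.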
